A study of Mus musculus with 6 samples.

Results

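The Janus kinases (JAKs) and the signal transducers and activators of transcription (STATs) were followed in mouse CD4 T cells grown with or without fine airborne particles. The members were the 9 genes of the deposited table named Jak1, Jak2, Jak3, Stat2, Stat3, Stat4, Stat5a, Stat5b and Stat6, of 34745 genes listed, and each name matched 1 gene. All 9 passed the filter on low counts, which kept 12967 genes for testing. Other genes of these families are not analysed here.

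RNA was sequenced from 6 libraries, 3 given PM2.5 and 3 given PBS. In both groups naive CD4 T cells came from the spleens of C57BL/6 females 6 weeks old and were stimulated with plate-bound antibodies to CD3 and CD28 for 4 days. All cultures received IL-6 (20 ng/ml), IL-2 (5 ng/ml), TGF-beta (2 ng/ml) and IL-23 (10 ng/ml), and blocking antibodies to IL-4 and to IFN-gamma (5 µg/ml each), a mixture that drives differentiation into IL-17 producing (Th17) cells. The PM2.5 group (particles of under 2.5 micrometres) received a suspension at 100 µg/ml 6 hours after stimulation, and the control group received PBS in its place. The cells were thus exposed as a culture, and all of them had been given 3 cytokines (IL-6, IL-23 and IL-2) that act through the members described here. Nothing in the labels tells whether replicates of a group came from separate cultures or mice; the p-values therefore cover the spread between these libraries alone, which may be technical.

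A cytokine receptor that works through JAKs has no enzyme activity of its own. JAKs are tyrosine kinases bound to the inner side of the receptor chains. When a cytokine draws the chains together, the JAKs phosphorylate each other, the receptor and then the STATs, which pair, enter the nucleus and bind DNA. Each cytokine uses its own set: in T cells IL-6, IL-21 and IL-23 act mainly through STAT3, IL-2 and IL-7 through STAT5, IL-12 through STAT4, IL-4 through STAT6, and type I interferon through a complex of STAT2 with IRF9. STAT3 is required for Th17 differentiation, while STAT5 signalling restrains it in mice and sustains Foxp3 in regulatory T cells. These steps are changes of protein phosphorylation, which RNA counts do not measure.

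Libraries held 25397965 to 27215853 counts in the PM2.5 group and 19511561 to 22353131 counts in the PBS group, so that every PM2.5 library was the deeper. The 7 T cell markers summed to 2796 to 2835 CPM (counts scaled to the library total) in the PM2.5 libraries and 3272 to 3301 CPM in the PBS libraries; 5 of them fell and 2 rose. Markers of other cells were low: the 4 B cell markers summed to 0.236 to 0.367 CPM with PM2.5 and 0.769 to 1.34 CPM with PBS, the 4 macrophage and monocyte markers used to 2.61 to 2.95 CPM and 4.65 to 5.82 CPM, the 4 dendritic cell markers to 2.37 to 3.15 CPM and 0.406 to 0.671 CPM, and the 4 NK cell markers to 5.14 to 6.36 CPM and 6.50 to 9.79 CPM. The 2 CD8 markers summed to 8.86 to 9.80 CPM and 10.2 to 11.5 CPM, and the 3 neutrophil markers, Ly6g alone, to 0.551 to 0.651 CPM and 5.28 to 6.27 CPM. Of the dendritic cell markers only Zbtb46 passed the filter on low counts, and it rose. Among the NK cell markers Eomes rose and Klrk1 fell, and of the CD8 markers Cd8b1 rose and Cd8a fell. Ms4a1, Lyz2, Clec9a, Siglech, Ncr1, S100a8, S100a9 and the 4 globin genes had 0 counts in every library. In such bulk samples fewer cells of a type and less RNA per cell cannot be told apart.

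The JAK-STAT genes were rearranged in both directions. With PM2.5, 4 members rose (Jak2, Stat4, Stat5a and Stat6; 35.2% of all genes tested rose) and 5 fell (Jak1, Jak3, Stat2, Stat3 and Stat5b; 35.3% of all genes tested fell) in edgeR's quasi-likelihood test, with an adjusted p of 0.000286 or less each. All 9 were therefore called, against 70.6% of all genes tested, or 82.4% of the 2636 genes that averaged 100 CPM or more, so a call alone sets the members little apart. All 9 also had groups that did not overlap, against 74.9% of all genes tested. The changes differed in size: the median absolute log2 fold change was 0.97 over the members and 0.43 over all genes tested. Jak1, Stat6 and Stat5b lay below the middle of all genes, at percentiles 49.8, 44.1 and 22.3 of absolute change. Jak3, Stat3 and Stat4 were called with a change of at least 2-fold, which is 3 of 9 members. The same 2 conditions held for 18.9% of all genes tested. As the members were chosen with earlier results of these data known, these contrasts only describe them. Within a group the libraries lay close together, with a coefficient of variation of at most 4.92% for any member.

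**Figure D1:**
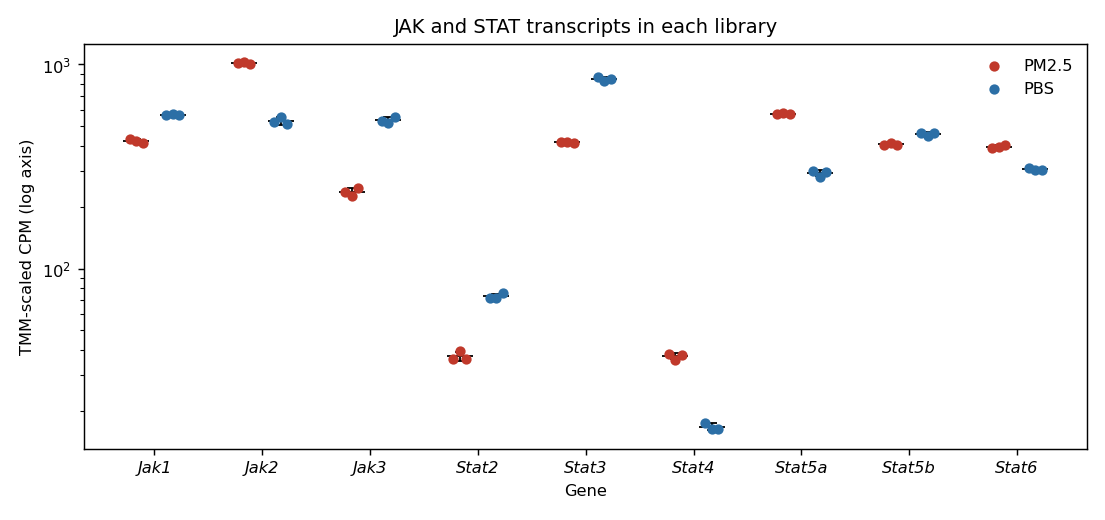
TMM-scaled CPM on a log axis for the 9 members; points are libraries, PM2.5 in red left of PBS in blue, and black marks are means with SDs of 3 libraries. The groups of points are apart for every gene, with PM2.5 above PBS for Jak2, Stat4, Stat5a and Stat6 and below it for the other genes.

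Among the kinases, Jak2 rose and Jak1 and Jak3 fell. Jak2, which serves the receptors of IL-12, IL-23, GM-CSF, IL-3 and interferon-gamma (ENSMUSG00000024789, mm10 chromosome 19, 29251828 to 29313080), had 1011, 1024 and 1002 CPM in the PM2.5 libraries, against 522, 556 and 510.2 CPM in the PBS libraries. Every PM2.5 library stood above every PBS library by at least 0.85 on the log2 scale. The fitted rise was 1.91-fold, a log2 fold change of 0.94 (SE 0.03, edgeR adjusted p = 2.83e-09).

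Jak3 pairs with the common gamma chain, the shared subunit of the receptors for IL-2, IL-4, IL-7, IL-9, IL-15 and IL-21 (ENSMUSG00000031805, chromosome 8, 71676296 to 71690575). It had 236, 227 and 247 CPM with PM2.5, against 528, 514 and 553 CPM with PBS. The level was 2.24-fold lower (log2 fold change -1.17, SE 0.04, edgeR adjusted p = 1.84e-09), with a gap of 1.06 on the log2 scale between the groups. Jak1, which is broadly used by gamma chain, IL-6 family and interferon receptors (ENSMUSG00000028530, chromosome 4, 101152367 to 101265282), had 431, 424 and 411 CPM with PM2.5, against 566, 572 and 564 CPM with PBS. Its fall was smaller, 1.35-fold (-0.43, SE 0.03, edgeR adjusted p = 2.57e-07).

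The summed level of the 3 kinase genes depended on the scale, while its makeup shifted. The sum was 1660.3 to 1678 TMM-scaled CPM with PM2.5 and 1616 to 1642 CPM with PBS, and scaled by library totals alone it was 1623 to 1641 CPM with PM2.5 and 1651 to 1672 CPM with PBS, so the sign of the difference turned with the scaling. In FPKM (the deposited unit, which scales counts by gene length and library size) the sum was 269 to 272 with PM2.5 and 238 to 243 with PBS. Of the summed FPKM, Jak2 made up 72.5 ± 0.438% with PM2.5 and 44.8 ± 1.45% with PBS (SD, n = 3 each). The share of Jak3 was 10.9 ± 0.537% with PM2.5 and 28.9 ± 1.35% with PBS, and that of Jak1 was 16.6 ± 0.320% and 26.4 ± 0.175%. The ratio of Jak2 to Jak3, chosen after the values were seen, was 6.66, 7.03 and 6.31 in the PM2.5 libraries and 1.54, 1.68 and 1.44 in the PBS libraries, 4.30-fold higher with PM2.5. Each of the 13 within-library values computed here (10 shares and 3 ratios) had groups that did not overlap and an exact two-sided permutation p of 0.10, also 0.10 after Benjamini-Hochberg adjustment, which is the smallest that 3 libraries against 3 can give.

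**Figure D2:**
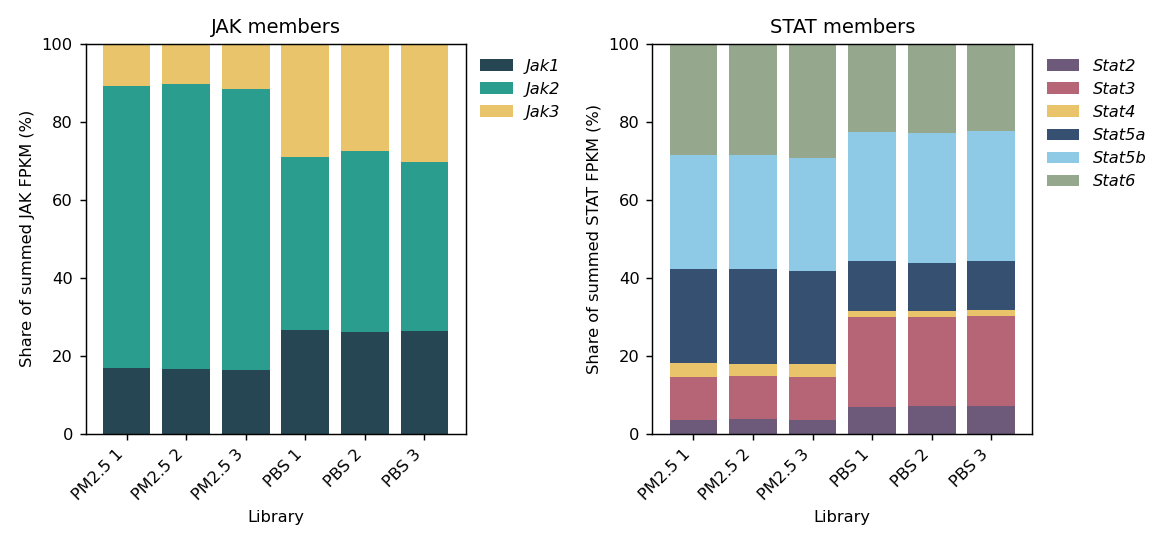
Share of each member in the summed FPKM of the 3 kinases (left) and the 6 STAT factors (right), in percent, one bar per library with the PM2.5 libraries left of the PBS libraries. Jak2 takes 72.5% of the kinase bar with PM2.5 and 44.8% with PBS; Stat3 takes 11.1% and 23.1% of the STAT bar, and Stat5a 24.2% and 12.5%.

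Stat3, the factor downstream of IL-6, IL-21 and IL-23 (ENSMUSG00000004040, chromosome 11, 100885098 to 100939540, minus strand), was lower in every PM2.5 library. It had 417, 416 and 414 CPM with PM2.5, against 871, 828 and 852 CPM with PBS. The PM2.5 libraries differed among themselves by a coefficient of variation of 0.291%, and every one lay at least 0.99 below the PBS libraries on the log2 scale. The fall was 2.05-fold (-1.03, SE 0.03, edgeR adjusted p = 3.36e-10). Its absolute change was larger than that of 81.8% of the genes tested.

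Stat5a and Stat5b encode a pair of closely related factors of the IL-2 and IL-7 signal, and they moved apart. Stat5a (ENSMUSG00000004043, chromosome 11, 100859351 to 100885169, plus strand) had 572, 580.4 and 573 CPM with PM2.5, against 301, 282 and 297 CPM with PBS, a rise of 1.96-fold (0.97, SE 0.03, edgeR adjusted p = 1.21e-09). Stat5b (ENSMUSG00000020919, chromosome 11, 100780731 to 100850724, minus strand) had 403, 411 and 405 CPM with PM2.5, against 464, 447 and 460.4 CPM with PBS. Its fall of 1.12-fold (-0.17, SE 0.03, edgeR adjusted p = 0.000286) was the smallest change of the members, and only 0.12 on the log2 scale separated the groups. With the counts of both genes summed to 1 feature, STAT5 transcripts had a log2 fold change of 0.39 (SE 0.03). This value was 0.32 with library totals in place of TMM scaling. With limma on the summed FPKM, which weighs each gene by its length and has no TMM scaling, it was 0.18. The ratio of Stat5a to Stat5b in FPKM, chosen after the values were seen, was 0.833, 0.829 and 0.832 with PM2.5 and 0.381, 0.370 and 0.379 with PBS, 2.21-fold higher with PM2.5.

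The likeness of the pair bears on these counts. The coding sequences of Stat5a and Stat5b in the GENCODE M21 transcripts were identical at 90.7% of aligned bases. Of the 50-base windows of the longest coding transcript, 15.8% for Stat5a and 11.8% for Stat5b occurred letter for letter in the other gene, whereas no such window was shared between any other pair of members. The longest identical run spanned 324 bases, coding bases 571 to 894 of both genes. Reads that lie inside such a run cannot be assigned to 1 gene, and how they were counted is not given in the sources used here. The split between Stat5a and Stat5b is therefore uncertain. Their summed counts do not depend on it as long as such reads were counted once. The summed FPKM does depend on it, as the lengths implied by the counts and FPKM were 9981 bases for Stat5a and 5863 for Stat5b. So do the STAT5 shares and the Stat3 to STAT5 ratio taken from FPKM. Shown here are the coding starts, where reads can be told apart by the bases in capitals, which mark the 16 mismatches in 90 bases, followed by the first 120 bases of the identical run (coding bases 571 to 690 of both genes), which holds none.
Stat5a coding start: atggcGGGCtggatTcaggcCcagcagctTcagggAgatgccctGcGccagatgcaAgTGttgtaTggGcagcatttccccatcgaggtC
Stat5b coding start: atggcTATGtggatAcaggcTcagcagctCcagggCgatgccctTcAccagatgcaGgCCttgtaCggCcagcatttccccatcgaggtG
Identical run of Stat5a and Stat5b: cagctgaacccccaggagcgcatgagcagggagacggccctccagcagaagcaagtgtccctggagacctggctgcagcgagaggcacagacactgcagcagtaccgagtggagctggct

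The 3 genes lie side by side within 159 kb of chromosome 11. Stat5b and Stat5a start 8.63 kb apart and run away from each other, and Stat5a and Stat3 run towards each other and overlap by 72 bases at their ends (100885098 to 100885169), all of them exonic in GENCODE M21. Neighbouring genes of this cluster thus showed a rise and a fall of about the same size, with log2 fold changes of 0.97 for Stat5a and -1.03 for Stat3. The strand setting of the counting is not given, so reads in the 72 shared bases cannot be told apart.

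**Figure D3:**
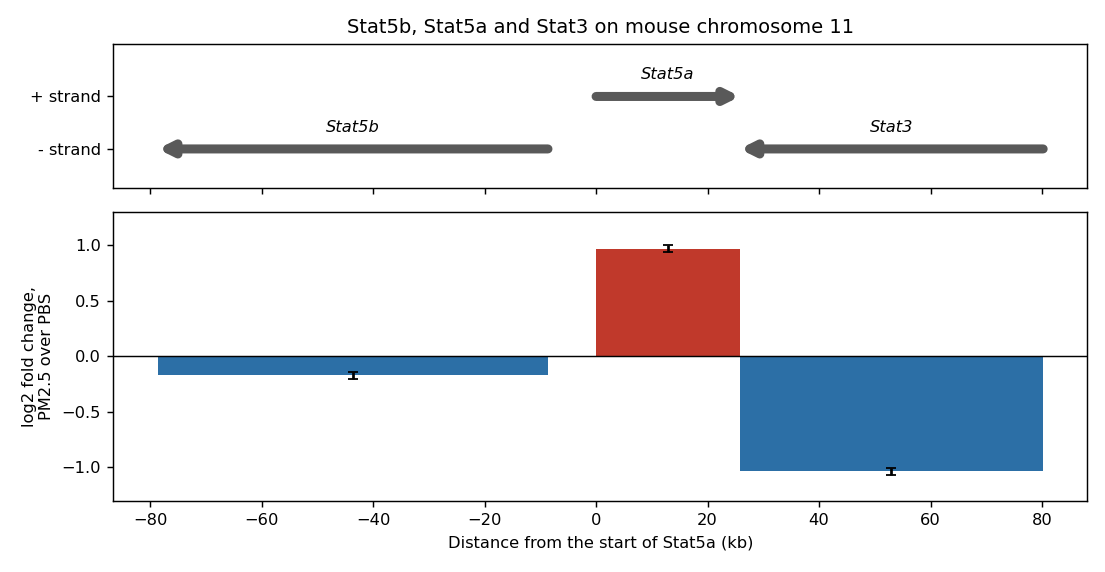
Position and direction of Stat5b, Stat5a and Stat3 on chromosome 11 in kb from the start of Stat5a (top), and the log2 fold change of each, PM2.5 over PBS, with its SE (bottom; bar widths are gene lengths). Stat5a (0.97) points up between Stat5b (-0.17) and Stat3 (-1.03).

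Weighed per length within each library, the balance of STAT3 and STAT5 transcripts shifted. The ratio of Stat3 to the sum of Stat5a and Stat5b in FPKM was 0.210, 0.206 and 0.208 in the PM2.5 libraries and 0.507, 0.504 and 0.5002 in the PBS libraries. It was 2.42-fold lower with PM2.5, a difference of -1.28 on the log2 scale. The SDs were 0.00208 with PM2.5 and 0.00343 with PBS. Stat3 held 11.1 ± 0.108% of the summed FPKM of the 6 STAT genes with PM2.5 and 23.1 ± 0.151% with PBS, and Stat5a and Stat5b together held 53.3 ± 0.334% and 45.8 ± 0.171% (SD, n = 3 each). The summed STAT genes stood at 1855 to 1877 TMM-scaled CPM with PM2.5 and 1947 to 2037 CPM with PBS. In FPKM the groups overlapped, with sums of 231 to 234 with PM2.5 and 233 to 243 with PBS.

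Stat4, which relays IL-12 and in part IL-23 (ENSMUSG00000062939, chromosome 1, 51987148 to 52107189), had the lowest FPKM of the members in PBS cultures. It had 38.0, 35.9 and 37.9 CPM with PM2.5, against 17.6, 16.5 and 16.4 CPM with PBS, a rise of 2.21-fold (1.15, SE 0.06, edgeR adjusted p = 4.20e-08). Stat6, the factor of IL-4 and IL-13 (ENSMUSG00000002147, chromosome 10, 127642986 to 127660957), had 389, 394 and 404 CPM with PM2.5, against 311, 303 and 305 CPM with PBS. This 1.29-fold rise (0.37, SE 0.03, edgeR adjusted p = 9.86e-07) was larger than that of 44.1% of the genes tested, in absolute terms. Stat2, the interferon factor (ENSMUSG00000040033, chromosome 10, 128270576 to 128292849), had 36.2, 39.4 and 36.2 CPM with PM2.5, against 72.0, 71.9 and 75.6 CPM with PBS, a fall of 1.96-fold (-0.97, SE 0.05, edgeR adjusted p = 4.08e-08).

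**Figure D4:**
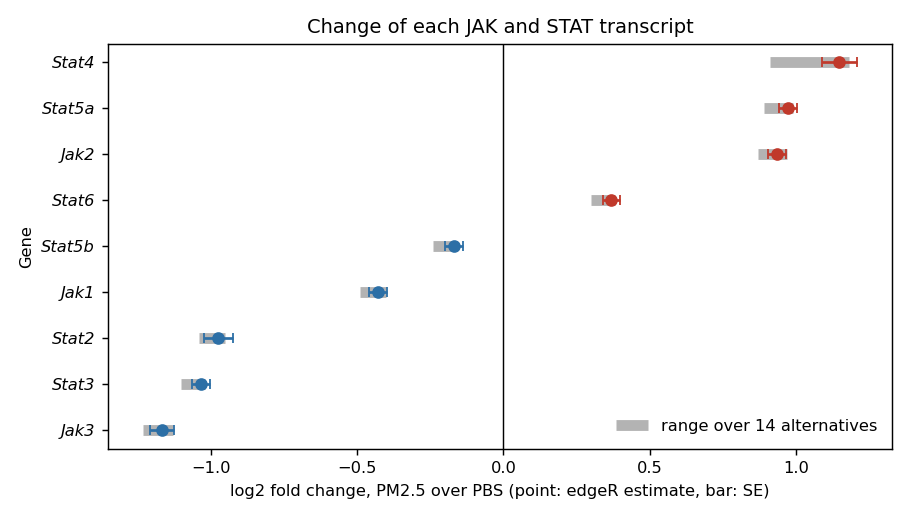
Log2 fold change of each member, PM2.5 over PBS, with points for the edgeR estimate, thin bars for its SE and grey bars for the range over 14 alternative fits. Rises (red) reach from 0.37 for Stat6 to 1.15 for Stat4 and falls (blue) from -0.17 for Stat5b to -1.17 for Jak3, and no grey bar crosses 0.

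The order of the levels per length depended on the length used. In the deposited FPKM, Jak2 stood highest in both groups, at 197 ± 2.04 with PM2.5 and 108 ± 4.28 with PBS, and Stat5b was next, at 67.8 ± 0.731 and 79.7 ± 1.83 (SD, n = 3 each). With PM2.5 the order went on with Stat6 (66.9), Stat5a (56.3), Jak1 (44.99), Jak3 (29.6), Stat3 (25.8), Stat2 (8.13) and Stat4 (7.72 FPKM); the libraries of Stat5b and Stat6 overlapped, and every other neighbouring pair was apart. With PBS it went on with Jak3 (69.3), Jak1 (63.3), Stat3 (55.2), Stat6 (54.2), Stat5a (30.0), Stat2 (16.7) and Stat4 (3.64 FPKM), with overlap between Stat3 and Stat6. The length behind the deposited FPKM was worked out from the counts, the FPKM and the library totals. For Stat3 it was 15739 bases, 2.60 times its longest coding transcript in GENCODE M21 (6042 bases). It also exceeded the 9527 bases that all annotated exons of Stat3 cover together. For Stat5a it was 2.57 times the longest coding transcript, whereas for Jak2 both lengths were 5030 bases. Divided by the longest coding transcript instead, an alternative chosen after seeing the data, Stat3 stood highest in the PBS group at 144 ± 4.07 FPKM, overlapping with Jak3 at 135 ± 5.69, while with PM2.5 Stat3 stood at 67.2 ± 0.189 and Jak3 at 57.6 ± 2.53. On that scale Jak2 was highest with PM2.5 (197) and Stat5a second (145), and the ratio of Stat3 to STAT5 was 2.84-fold lower with PM2.5.

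RefSeq promoter windows (GRCm38.p6, 250 bases before to 50 after a start) were found for all 9 members, 12 windows in all, and 5 motifs were searched on both strands. The interferon response element (GAAA, any 2 bases, GAAA), bound by complexes that hold STAT2 and IRF9, was found in the window of Stat2 and at the downstream of the 2 starts of Stat4, against 3.44% of all 32851 windows. Stat2 fell and Stat4 rose, so the members that carry it moved in opposite directions. The STAT6-type site (TTC, any 4 bases, GAA) was found in the Stat2 window, 2 bases from the interferon element, against 6.95% of all windows, and the cAMP response element TGACGTCA in that of Jak1, against 1.79%. The common STAT site TTCNNNGAA (8.30% of all windows) and the ATF4-type site TGATGNAA (3.97%) matched no member window. A match is a description of letters and no sign of binding. The 250 bases before the starts of the 3 windows with a match are shown 5′ to 3′ on the gene's strand, with the matches in capitals: chr10:128270248-128270497 (plus strand) for Stat2, chr1:52007990-52008239 (plus) for Stat4 and chr4:101265224-101265473 (minus) for Jak1.
Stat2: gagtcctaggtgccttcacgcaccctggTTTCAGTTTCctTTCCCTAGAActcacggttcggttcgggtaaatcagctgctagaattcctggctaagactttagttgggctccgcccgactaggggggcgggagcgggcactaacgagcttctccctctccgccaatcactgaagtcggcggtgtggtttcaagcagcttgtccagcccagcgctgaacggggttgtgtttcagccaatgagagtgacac
Stat4: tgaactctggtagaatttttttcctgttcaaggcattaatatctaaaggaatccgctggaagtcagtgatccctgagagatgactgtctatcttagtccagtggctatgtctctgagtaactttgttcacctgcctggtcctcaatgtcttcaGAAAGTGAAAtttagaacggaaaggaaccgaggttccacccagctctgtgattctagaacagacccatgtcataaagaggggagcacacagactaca
Jak1: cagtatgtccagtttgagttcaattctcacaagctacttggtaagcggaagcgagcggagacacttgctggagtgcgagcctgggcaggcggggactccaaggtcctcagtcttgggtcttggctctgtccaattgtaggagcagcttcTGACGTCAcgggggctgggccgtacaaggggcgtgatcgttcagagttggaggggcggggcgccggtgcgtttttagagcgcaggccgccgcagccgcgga

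Genes that act before and after the members were taken from 9 lists chosen with earlier results of these data known. Among 23 cytokine ligand genes, 14 were tested; 7 rose and 5 fell, with a median log2 fold change of 0.62, against -0.01 over all genes tested. Of all genes tested 35.2% rose and 35.3% fell, which is the background for every list. With the filter at 5 CPM 3 of the ligand genes fell and their median was 0.85. It was 0.47 with limma on log2(FPKM + 1), 0.49 without PBS replicate 1 and 0.82 without PBS replicate 3. Il2, the T cell growth factor, had 319.6, 328 and 278 CPM with PM2.5, against 2.03, 2.07 and 1.65 CPM with PBS. Csf2, the gene of GM-CSF, rose 23.1-fold, and Lif, a cytokine of the IL-6 family, fell 5.98-fold. Il3 had 387 counts over the PM2.5 libraries and 0 over the PBS libraries, which is at least 105-fold higher when the PBS libraries together are set to a floor of 3 counts.

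Of 29 receptor chains 26 were tested, of which 6 rose, 16 fell and 4 did not pass, where 35.2% of all genes tested rose and 35.3% fell. The median log2 fold change of the chains was -0.20, against -0.01 over all genes tested, and it was -0.33 with the filter at 5 CPM. For scale, the median absolute change over all genes was 0.43. Il6st, the gp130 chain of the IL-6 receptor, had 62.2, 68.8 and 76.5 CPM with PM2.5, against 129, 137 and 154 CPM with PBS (2.02-fold lower; -1.01, SE 0.10, edgeR adjusted p = 0.000161). Il2rb, which carries the IL-2 and IL-15 signal, had 469, 459.8 and 476 CPM with PM2.5, against 846, 838 and 854 CPM with PBS. Il7r fell 2.04-fold and the common gamma chain Il2rg, the partner of JAK3, fell 1.14-fold (-0.19, SE 0.03, edgeR adjusted p = 0.000126). Il12rb1, the chain shared by the IL-12 and IL-23 receptors, went the other way and rose 2.11-fold.

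The 20 inhibitors were split, with 9 that rose, 6 that fell and 5 that did not pass (median 0.04). The median was -0.02 with library totals and with either limma fit and -0.01 with the filter at 5 CPM, so it has no stable sign. The largest fall was that of Socs3, which blocks JAKs at the gp130 chain and is itself induced by STAT3: it had 17.4, 16.8 and 16.7 CPM with PM2.5, against 169, 169 and 171 CPM with PBS (9.99-fold lower; -3.32, SE 0.04, edgeR adjusted p = 3.15e-12). Socs2, a target and inhibitor of STAT5 signalling, fell 2.27-fold, whereas Socs7 rose 1.66-fold. Cish, another STAT5 target, had 127, 175 and 140.0 CPM with PM2.5, against 226, 230 and 171 CPM with PBS. Its groups overlapped and it did not pass (-0.50, SE 0.19, edgeR adjusted p = 0.0697), with an adjusted p below 0.05 in 7 of 14 alternatives over a range of 0.0156 to 0.177. Of 14 partners and coactivators 5 rose, 6 fell and 3 did not pass (median -0.04). Irf9, the partner of STAT2, fell with it, with 36.8, 38.8 and 41.0 CPM under PM2.5, against 62.5, 64.2 and 62.9 CPM under PBS, the histone deacetylase Hdac1 fell 1.46-fold and the kinase Prkcd rose 1.61-fold.

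Target genes were listed by factor, and their counts are set here beside the change of the factor itself. They are to be read against all genes tested, of which 35.2% rose and 35.3% fell. Of the 16 STAT3 targets, 5 rose and 9 fell, and the median over the list was -0.14. Besides Socs3, the transcription factor Maf (3.09-fold) and the NF-kB cofactor Bcl3 (4.94-fold) fell, whereas the survival kinase Pim1, also a STAT5 target, had 406, 403 and 406 CPM with PM2.5, against 213, 206 and 210.4 CPM with PBS. Of the 16 STAT5 targets, 4 rose, 10 fell and 2 did not pass (median -0.51), among them the cyclin Ccnd2, which rose 2.47-fold, and the granule protease Gzmb, which fell 2.68-fold. Of the 12 STAT4 targets, 2 rose, 7 fell and 3 did not pass, while Stat4 itself rose. The median was -0.68, or -0.37 with limma on log2(FPKM + 1) and -0.80 with the filter at 5 CPM. The interferon gene Ifng rose 3.23-fold and the kinase Map3k8 2.15-fold, and the protease Furin fell 1.98-fold.

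Of the 10 STAT6 targets tested of 12, 5 rose, 3 fell and 2 did not pass. The count that rose was 3 with DESeq2 or without PM2.5 replicate 3, and 2 with the filter at 5 CPM. The median of 0.37 was 0.21 without PBS replicate 1, 0.60 without PBS replicate 3, 0.13 with limma on log2(FPKM + 1) and 0.22 under the 5 CPM filter. The chemokine receptor Ccr4 (2.41-fold) and the transcription factor Nfil3 (2.66-fold) rose, and the chemokine receptor Ccr8 fell 6.51-fold. Of the STAT2 and IRF9 targets, 16 of 23 were tested: 12 fell, Isg15 rose (2.68 ± 0.397 CPM with PM2.5 and 1.24 ± 0.251 CPM with PBS) and 3 did not pass; the list median was -1.89. With the filter at 5 CPM 5 fell and 0 rose, and the median was -1.37; it was -0.43 with limma on log2(FPKM + 1) and -1.18 with log2(FPKM + 0.1). Parp14 (4.58-fold), Parp9 (4.35-fold) and the double-stranded RNA kinase Eif2ak2 (2.40-fold) fell with Stat2 and Irf9. The lists share members (Socs1, Socs2, Cish and Pim1, for example), and whether a target moved through its factor was not tested.

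**Figure D5:**
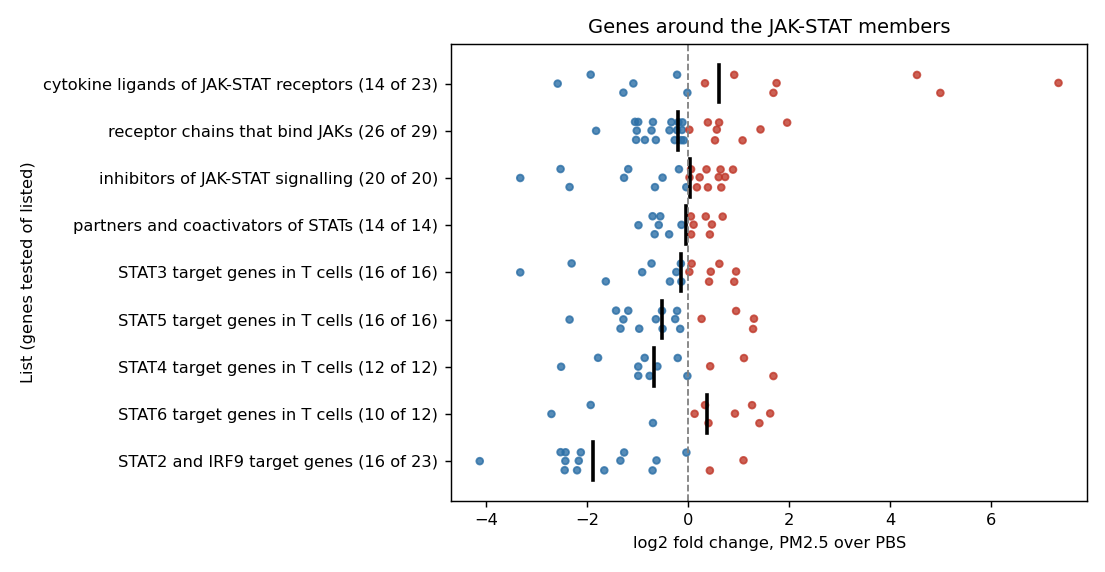
Log2 fold change, PM2.5 over PBS, of the tested genes in 9 lists, 1 point per gene (red above 0, blue below) with the median as a black bar and the median of all genes tested (-0.01) as a dashed line; Il3, at 0 counts in PBS, is not drawn. The median of the STAT2 and IRF9 list is drawn at -1.89 (-0.43 with limma on log2(FPKM + 1)), and the inhibitors reach from -3.32 (Socs3) to 0.89.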

How the data were processed

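RNA-seq libraries were compared, 3 with PM2.5 and 3 with PBS. The authors deposited 1 table with raw counts per Ensembl gene and FPKM per library, per the file headers; the submitters' processing notes list TopHat2 2.0.6 and the build mm10. The counting program, its annotation, strand setting and treatment of reads with several matches have no statement in the labels, so counts of overlapping or near-identical genes are uncertain. The members and lists were chosen with earlier results of these data known. Genes were filtered with filterByExpr (minimum count 10, minimum total 15) and tested in edgeR 4.0.16 under R 4.3.3 (TMM scaling, robust quasi-likelihood F test, two-sided, Benjamini-Hochberg adjustment over 12967 genes, threshold 0.05). Each SE was obtained by dividing the size of the log2 fold change by the root of its F statistic. CPM of genes are TMM-scaled; marker sums use library totals. Shares and ratios were taken from the deposited FPKM within each library and compared by exact permutation of the samples. Named genes other than members are up to 3 per list with the smallest adjusted p, a mean of at least 5 CPM in a group and groups that do not overlap, and 6 genes in any case (Socs3, Cish, Il6st, Il2rg, Irf9 and Pim1); Il3, Isg15 and the markers were named after their values were seen. One marker symbol (Itgam) was not matched to a single gene and left out. The alternatives were RLE size factors, library totals, DESeq2 1.42.0, other filters, limma 3.58.1 on FPKM, a replicate block and leaving out each library. Totals per library set the precision: a member's lowest count was 327.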

Additional observations from a re-analysis of the deposited data

How the results depend on the processing

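The 27 results that answer a comparison (the changes of the 9 members and of Stat5a plus Stat5b, the counts of calls, the shares and the ratios) were kept in all 301 alternative values. For the changes, shares and ratios, kept means the same direction and the same side of the threshold, though the within-library tests could not pass 0.05 in any of them. For the counts of calls, kept means within a factor of 1.5 of the main value. Over the 14 alternatives Stat5b ranged from -0.24 to -0.16 (adjusted p at most 0.00262) and Stat4 from 0.91 to 1.18; leaving out single libraries moved Stat3 between -1.05 and -1.02 and Jak3 between -1.19 and -1.13. The log2 fold change of summed Stat5a and Stat5b was 0.18 to 0.40, so its size depends on the scale. The lowest values were those on FPKM, where each gene is divided by its own length and TMM scaling is not used. Library totals shifted the median of all genes by -0.064 on the log2 scale. The median of the inhibitor list reversed to -0.02 with library totals and with limma on log2(FPKM + 1) or log2(FPKM + 0.1), and to -0.01 with the filter at 5 CPM; the median of the partner list was -0.07 to 0.02 when single libraries were left out, reversed to 0.02 without PM2.5 replicate 1. Samples of the same number correlated weakly in their deviations (0.0134, 0.0072 and 0.045), and PM2.5 replicate 2 correlated best with another number, at 0.0235. With 3 libraries per group, such values cannot tell whether samples of the same number were paired. With the replicate block all 9 members were still called and 9002 genes in all, against 9149. Depth did not limit the members, but 9 of 23 ligand genes and 7 of 23 STAT2 and IRF9 targets were too low to test.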

Other observations

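Over the 6 libraries, the genes tested with a mean of at least 5 CPM whose mean-centred log2 CPM lay nearest to that of Jak3 were Tmem55a (Euclidean distance 0.0528), Reck (0.0728) and Nr4a1 (0.0741), with log2 fold changes of -1.20, -1.18 and -1.15. Nearest to Stat5b, the member that changed least, were Kif20a (0.0342), Ppp2r1a (0.0399) and Pgam1 (0.0454), with -0.15, -0.16 and -0.15. The distance was taken to 9919 genes in each case, and with 2 groups of 3 libraries it reflects mostly the difference between the groups.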
